A study of Mus musculus with 6 samples.

Results

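The abundant noncoding features of mouse left atrium were chosen by level: they are the rows of the authors' deposited table with a value above 300 in each of its 6 sample columns, and 718 of 34518 listed features met this rule (2.08%). The RNA came from left atria of adult mice of the outbred CD1 stock, reared without doxycycline for 1 week. FOG2_OE (3 libraries, DTG animals) carried FOG2 overexpression, and WT (3 libraries, NTG animals) was wild type; the labels do not spell out DTG or NTG and do not name the promoter that drove FOG2. The labels do not say whether each library was a separate animal, so that p-values measure only the spread between these libraries. Total RNA was depleted of ribosomal and of polyadenylated RNA before library preparation. The question addressed here is which noncoding RNAs made up most of the listed signal in WT atrium and how their group levels differed with FOG2 overexpression.

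FOG2, the product of Zfpm2, binds GATA factors and modulates their activity at cardiac genes. RNA without a poly(A) tail includes small structured RNAs of the spliceosome and of ribosome biogenesis, nuclear retained long RNAs, and short-lived transcripts from enhancers, promoters and introns. Atrial muscle depends on sarcomere genes for contraction, on calcium release and reuptake genes for its timing, and on ion channel genes for its rhythm.

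In the 6 sample columns the values are fits from the authors' model, which within a group differ only by library size. MSTRG.6916, the most abundant feature, was listed at 577076, 635634 and 666830 in WT replicates 1 to 3 and at 1087770, 989338 and 1159220 in FOG2_OE replicates 1 to 3. MSTRG.7524, the most abundant feature that was called lower, was listed at 36395, 40088 and 42055 in WT and at 10335, 9400 and 11014 in FOG2_OE. These numbers carry no spread between replicates, and whether the libraries of both groups overlapped cannot be read from them. Levels are therefore given as 1 fitted value per group in CPM (reads scaled to the effective library size, in the unit of the authors' log2 CPM column), with a standard error (SE) solved from the deposited likelihood ratio. A feature was called higher or lower in FOG2_OE where its adjusted p in the authors' deposited table was under 0.05, and of all 34518 listed features 1.16% were called higher, 4.65% lower and 5.81% in either direction.

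Effective libraries held 71180401 to 84907173 reads, of which the listed features took 4.43% in WT and 5.25% in FOG2_OE. Features over Zfpm2 summed to 1.42 CPM in WT and 418 CPM in FOG2_OE, in the direction of the labels. The authors listed these features as noncoding RNA, so the tissue label could be looked at only through features that overlap marker genes. Of all listed features, 682 were classed as overlapping an exon of a protein-coding gene on the listed strand. Whether they hold reads of coding transcripts was not tested. Of 16 atrial marker genes, 11 had a listed feature, and these summed to 37.9 CPM in WT and 17.8 CPM in FOG2_OE. Nppa, Kcna5, Nr2f1, Gja5 and Bmp10 had none. Features over ventricular markers (2 of 9 genes had one) summed to 0.327 and 0.279 CPM, and over fibroblast markers (6 of 10) to 2.23 and 3.63 CPM. Those over endothelial markers (5 of 9) summed to 1.95 and 2.14 CPM, and over immune markers (2 of 9) to 0.136 and 0.135 CPM. The ventricular genes Myl2, Myl3 and Myh7 were among those without a listed feature. These sums depend on which genes have a listed feature, so their contrast does not check the tissue label. In whole atrium, fewer cells of a type and less RNA per cell cannot be told apart, and the part of these differences in the results was not tested.

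A first set of sequences shows the small structured RNAs of known identity among the abundant features, because these are the members whose product can be named from its letters. All were read from GENCODE M21 transcripts (GRCm38, the mm10 build), 5′ to 3′. Rnu3a encodes a U3 small nucleolar RNA, which guides early cleavage of the ribosomal RNA precursor. Capitals mark the letters of box C (TGATGA) and box D (CTGA), the short motifs of this RNA family, and the gene lies at chr10:40258467-40258680 on the plus strand.
Rnu3a-201: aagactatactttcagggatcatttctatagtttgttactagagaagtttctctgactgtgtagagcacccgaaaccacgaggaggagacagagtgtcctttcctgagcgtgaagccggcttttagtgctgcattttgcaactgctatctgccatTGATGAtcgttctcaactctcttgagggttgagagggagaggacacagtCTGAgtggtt
Gm24265 and Gm24407 are neighbouring genes whose letters are those of the spliceosomal U4 RNA, at chr5:115489459-115489599 and chr5:115490254-115490394 on the plus strand. Capitals mark the 2 positions of 141 at which they differ, G88A and C99A, with the base of Gm24265 first and positions counted from its 5′ end.
Gm24265-201: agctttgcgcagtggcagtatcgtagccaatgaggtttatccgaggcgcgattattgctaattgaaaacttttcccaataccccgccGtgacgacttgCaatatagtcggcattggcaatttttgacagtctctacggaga
Gm24407-201: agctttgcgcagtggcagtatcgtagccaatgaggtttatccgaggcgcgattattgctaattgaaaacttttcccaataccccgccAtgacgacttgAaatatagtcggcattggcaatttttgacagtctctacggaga
Gm25360 and Gm22973 carry the letters of the spliceosomal U2 RNA, at chr1:72226240-72226430 and chr12:59040335-59040525 on the plus strand. Capitals mark the 10 positions of 191 at which they differ.
Gm25360-201: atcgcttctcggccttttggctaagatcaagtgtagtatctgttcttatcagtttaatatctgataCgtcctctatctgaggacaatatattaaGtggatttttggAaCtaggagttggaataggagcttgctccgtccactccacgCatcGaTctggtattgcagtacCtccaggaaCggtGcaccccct
Gm22973-201: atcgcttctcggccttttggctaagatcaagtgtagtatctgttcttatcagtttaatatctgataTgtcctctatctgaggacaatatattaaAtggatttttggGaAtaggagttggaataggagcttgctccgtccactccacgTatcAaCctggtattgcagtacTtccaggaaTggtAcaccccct
Rny1 and Rny3 encode Y RNAs, small RNAs bound by the Ro60 protein, at chr6:47788069-47788180 on the minus strand and chr6:47781624-47781725 on the plus strand. Capitals mark a run of 12 bases that both hold.
Rny1-201: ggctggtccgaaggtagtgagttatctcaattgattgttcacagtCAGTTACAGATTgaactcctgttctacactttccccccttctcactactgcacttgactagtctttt
Rny3-201: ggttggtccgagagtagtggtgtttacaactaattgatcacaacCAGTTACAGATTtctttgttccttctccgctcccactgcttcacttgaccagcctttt

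Signal in WT atrium was concentrated in few features, most of them short and with no GENCODE M21 gene on the listed strand. The 718 features summed to 33135 CPM in WT, or 74.8% of all listed signal, and to 42620 CPM in FOG2_OE, or 81.3%. The 15 most abundant in WT held 63.5% of that sum in WT and 73.3% in FOG2_OE. Of these 15, 11 spanned at most 500 bases. The median feature stood at 9.71 CPM in WT and 8.44 CPM in FOG2_OE, beside 0.1001 and 0.0858 CPM over all listed features. The rule chose features by these levels, so they are a description and carry no test.

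**Figure D1:**
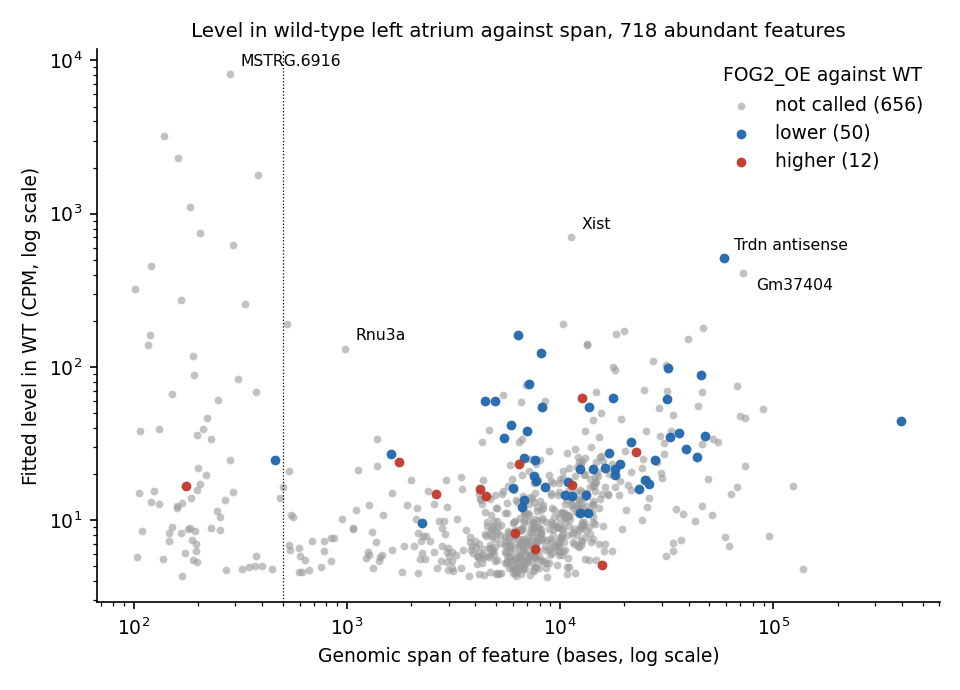
Fitted level in WT (CPM, log scale) against genomic span (bases, log scale) for the 718 abundant features, with points coloured by the call in the authors' deposited table and a dotted line at 500 bases. The highest points lie left of the line and are grey (not called), while 49 of the 50 features called lower lie right of it. Only 71 of the 718 features lie left of the line. Of these 71, 1.41% were called lower, beside 3.23% of all listed features of that span.

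MSTRG.6916 was the leading feature by a wide margin. It spans 283 bases of the minus strand at chr10:11491974-11492256, outside any gene of GENCODE M21, and its nearest coding start, that of Epm2a, is 149 kb away. Its fitted level was 8107 CPM in WT and 13653 CPM in FOG2_OE. The authors' deposited table gave a log2 fold change of 0.75 ± 0.55 (implied SE, 3 libraries per group) and a Benjamini-Hochberg adjusted p of 0.53 by the likelihood ratio test, which is within the error of the fit. Without this feature the others summed to 25028 CPM in WT and 28967 CPM in FOG2_OE.

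The next most abundant features were also short. MSTRG.42345 (139 bases, chr19:8252220-8252358, opposite the noncoding gene AC166748.2) stood at 3227 CPM in WT and at 3800 CPM in FOG2_OE. MSTRG.44992 (162 bases, chr2:22744303-22744464) and MSTRG.45014 (184 bases, chr2:22744825-22745008) lie 360 bases apart between genes, with Apbb1ip as the nearest. The first stood at 2296 CPM in WT and 3638 CPM in FOG2_OE and the second at 1113 and 593 CPM, so that these neighbours had opposite signs, neither of them called. MSTRG.67751 (384 bases, chr5:146260982-146261365) is listed opposite to Cdk8, a kinase of the Mediator complex. Its level was 1790 CPM in WT and 4454 CPM in FOG2_OE; the authors' deposited table gave 1.32 ± 0.51 as the log2 fold change and 0.13 as its adjusted p (same test), so that it was not called.

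Among the remaining short features of the leading 15, MSTRG.3706 (205 bases, between genes on chromosome 1) had nearly the same level in both groups, 750 CPM in WT and 736 CPM with FOG2 overexpression. MSTRG.88325 (291 bases) is listed opposite to Lars2, the mitochondrial leucyl-tRNA synthetase gene, at 627 CPM in WT and 969 CPM with FOG2 overexpression. MSTRG.36238 (120 bases, between genes on chromosome 17) stood at 457 and 242 CPM. MSTRG.67963 (167 bases, between genes on chromosome 6) stood at 275 and 517 CPM. MSTRG.44533 (331 bases) is listed opposite to Camk1d, a calmodulin-dependent kinase, at 256 and 391 CPM. The implied SE of the 11 short features among the leading 15 had a median of 0.55 on the log2 scale, and none of the 11 was called in either direction.

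Only 4 of the leading 15 features spanned over 500 bases. MSTRG.90114 covers Xist, the long noncoding RNA that coats the inactive X chromosome, and spans 11220 bases at chrX:103460447-103471666. It stood at 701 CPM in each group (authors' deposited table: log2 fold change 0.00 ± 0.25, with the SE taken from features of like abundance). MSTRG.52877 (72333 bases, chr3:62087162-62159494) overlaps the lncRNA gene Gm37404 and stood at 408 CPM in WT and 690 CPM in FOG2_OE, with an implied SE of 0.52 on the log2 scale. MSTRG.23093 (521 bases), listed opposite to Jarid2, a partner of Polycomb repressive complexes, stood at 191 and 199 CPM. The fourth was MSTRG.7524, described with the called features.

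**Figure D2:**
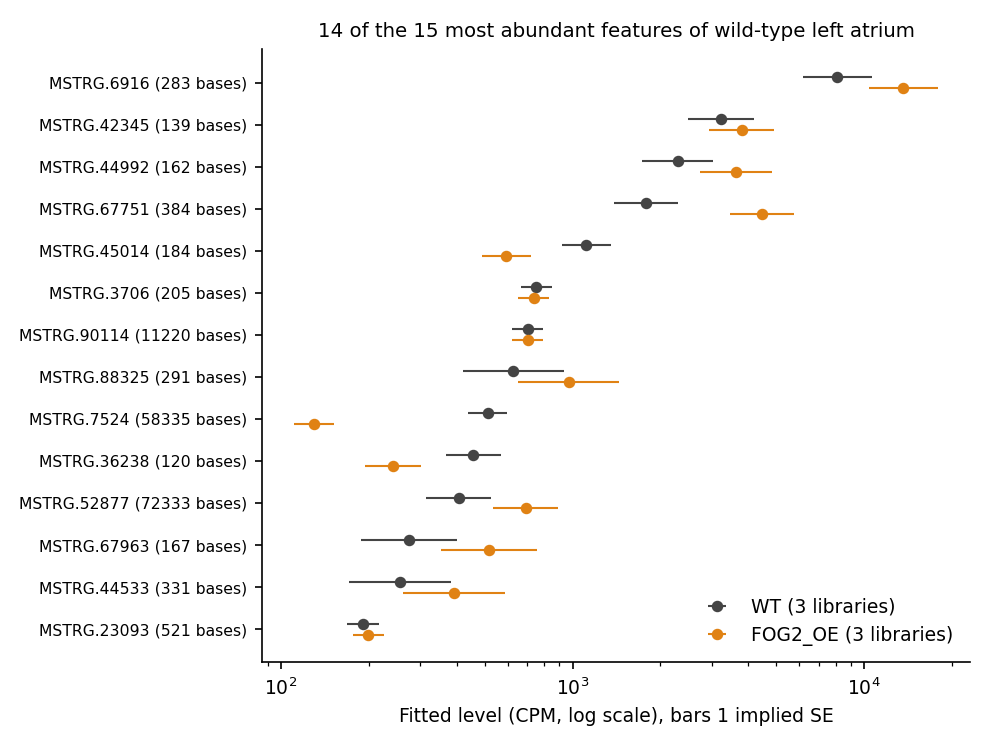
Fitted level (CPM, log scale) of 14 of the 15 most abundant features of WT left atrium in WT and FOG2_OE, 3 libraries per group, with bars of 1 implied SE around each fitted value. MSTRG.7524, at 511 CPM in WT and 130 CPM in FOG2_OE, is the called feature among them, while the bars of MSTRG.90114 (Xist) lie on each other. The bars of MSTRG.90114, MSTRG.3706 and MSTRG.23093 were taken from features of like abundance.

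The order of features was largely shared between the groups: 13 of the first 15 and 82 of the first 100 were the same. MSTRG.7524 moved from rank 9 in WT to rank 30 in FOG2_OE, and MSTRG.67751 from rank 4 to rank 2. Per kilobase of feature, the 10 features with the highest level in WT all belonged to the 15 most abundant, from MSTRG.6916 at 28647 CPM per kb to MSTRG.67963 at 1647 CPM per kb. The 15 features highest on that scale held 93.1% of the CPM per kb summed over the abundant features in WT. Neighbouring ranks such as MSTRG.3706 and MSTRG.90114, at 750 and 701 CPM in WT, did not differ beyond their errors, which were 12.4% of the level for each. Both errors were taken from features of like abundance and are not those of the 2 features themselves.

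Short features were few and held most of the signal. The 71 features of at most 500 bases held 62.6% of the summed level in WT and 74.4% in FOG2_OE. The 149 features of over 500 and up to 5000 bases held 5.39% in WT, the 427 of up to 20000 bases 21.9%, and the 71 longer ones 10.2%. The median span of the abundant features was 7204 bases, beside 238 bases over all listed features. The authors' deposited table called 1 higher and 1 lower among the 71 shortest, 4 and 4 in the next range, 6 and 30 in the third, and 1 and 15 among the 71 longest. Called lower were thus 1.41%, 2.68%, 7.03% and 21.1% of the abundant features from the shortest range to the longest. Over all listed features of the same 4 ranges the lower calls were 3.23%, 7.26%, 14.2% and 19.5%, so that a larger share at longer spans was also seen over the whole table.

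**Figure D3:**
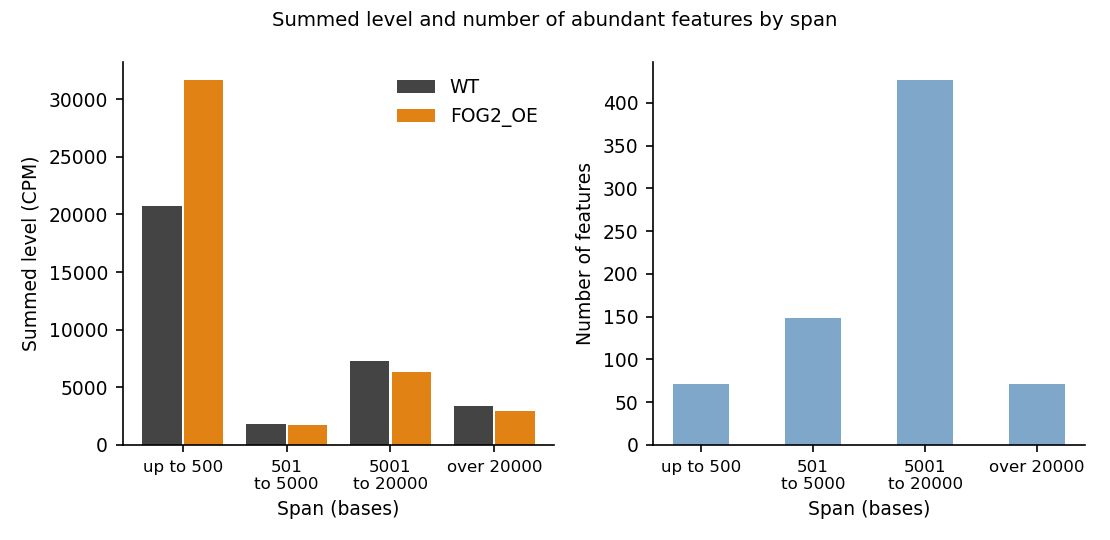
Summed fitted level (CPM, left) in WT and FOG2_OE and number of features (right) of the 718 abundant features in 4 ranges of genomic span (bases). The range of at most 500 bases has the tallest bars on the left, 20730 CPM in WT and 31689 CPM in FOG2_OE, with 71 features on the right.

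Among features of high level, the short ones had larger implied errors than the long ones. Of 20 short features above 40 CPM in WT, 16 had a log2 fold change above 0, with a median of 0.65, but their median implied SE was 0.59 and none was called. Of 48 longer features above 40 CPM, the authors' deposited table called 1 higher and 14 lower, and their median implied SE was 0.25. Over all listed features of any level and span, 1.16% were called higher and 4.65% lower. The share called lower was also larger at long spans over the whole table, at 19.5% above 20000 bases. A biological coefficient of variation, the relative spread between libraries beyond counting error, of over 50% was implied for 26 features, of which 17 were short. Over all 718 features the median coefficient was 24.9%, and the median SE 0.30. The treatment of reads that map to several places is not given in the sources used here, and whether short features are copies of repeated genes was not tested.

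By annotation, the abundant features were most often intergenic. In GENCODE M21, 221 lay between genes and held 50.3% of the summed WT level, and 49 of these overlapped a RefSeq gene. A further 130 were classed as opposite to a protein-coding gene (14.2% of the level). Another 116 were classed as overlapping an exon of an lncRNA gene (10.3%), and 111 an exon of a protein-coding gene (5.67%). The remaining classes were introns of lncRNA genes (33 features), annotated small RNA genes (32), pseudogene exons (30), the strand opposite to noncoding genes (25) and introns of protein-coding genes (20). The authors' deposited table called 4 intergenic features higher and 23 lower, 1 and 12 of the lncRNA exon features, 1 and 8 of those opposite to coding genes, and 2 and 0 of those in coding exons. As shares called lower these were 10.4%, 10.3%, 6.15% and 0.0%, beside 5.51%, 5.21%, 4.21% and 1.47% over all listed features of the same 4 classes. Strands are those listed by the authors, although the library kit keeps no record of strand. With strand ignored, 209 features were classed as overlapping a coding exon, after those over small RNA genes and lncRNA exons were set apart.

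Small structured RNAs of known identity contributed little of the listed level, and none of those shown above was called. Of 21 genes listed as structured RNAs for this report, Lars2 included, 7 had a listed feature of any level. Rn7sk, Rmrp, Rpph1 and Terc had none, so their level in atrium cannot be read from these data. MSTRG.7603, which contains the U3 gene Rnu3a within 983 bases, stood at 131 CPM in WT and 136 CPM in FOG2_OE. The authors' deposited table gave a log2 fold change of 0.06 ± 0.25, with the SE taken from features of like abundance. The features over the U4-like genes, MSTRG.66230 and MSTRG.66233, stood at 39.6 and 35.7 CPM in WT and at 29.4 and 24.9 CPM in FOG2_OE. Those over the U2-like genes, MSTRG.2097 and MSTRG.19250, stood at 8.77 and 6.32 CPM in WT and at 10.3 and 6.36 CPM in FOG2_OE. Because the copies are near-identical, as their printed sequences show, reads could have been split between them or with other copies, and these levels are uncertain. The Y RNA features MSTRG.69302 (Rny1) and MSTRG.69301 (Rny3) stood at 12.3 and 13.9 CPM in WT and at 10.9 and 14.3 CPM in FOG2_OE. No abundant feature overlapped a gene of the histone list. Most histone transcripts lack a poly(A) tail.

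Of 43 genes listed by name for this report, mostly lncRNA genes but with the coding gene Lars2 among them, 8 overlapped an abundant feature, through 10 features in all, and none of the 10 was called (background 5.81% of all listed features called in either direction). Besides Xist with Tsix, and Lars2, these were Malat1, Mir99ahg, Jpx, Snhg12 and Airn. The 2 features at Malat1, the gene of a nuclear speckle RNA, are both listed on the strand opposite to it. Because the library kit keeps no record of strand, whether their values include reads of Malat1 itself cannot be told. They were low, MSTRG.42123 at 19.7 CPM in WT and 22.5 CPM in FOG2_OE and MSTRG.42126, which overlaps an exon of the lncRNA gene Gm37376, at 6.18 and 6.06 CPM. Of 3 features at Mir99ahg, the host gene of microRNAs of the miR-99 and let-7 families, MSTRG.35749 was the most abundant at 171 CPM in WT and 154 CPM with FOG2 overexpression. MSTRG.90146 at Jpx, an activator of Xist, stood at 7.45 and 8.10 CPM. MSTRG.35761 at Airn, the imprinted antisense RNA of Igf2r, stood at 5.38 and 6.29 CPM. Snhg5, Snhg6, Snhg8, Snhg12 and Snhg17, host genes of small nucleolar RNAs, had an abundant feature each, for which the authors' deposited table gave log2 values of change between 0.14 and 0.45 and no call; this group was chosen after its values were seen.

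With FOG2 overexpression, more abundant features were called lower than higher, as was also the case over all listed features. By the likelihood ratio test of the authors' deposited table, with a Benjamini-Hochberg adjusted p under 0.05 over all listed features, 12 of the 718 were called higher (1.67%) and 50 lower (6.96%). Over all listed features the shares were 1.16% higher and 4.65% lower. A level above 300 in both groups was required, so features high in 1 group only are not among the members: 221 passed the level in WT only and 95 in FOG2_OE only. Without adjustment, 136 of the 718 had a p under 0.05 by the likelihood ratio test of the authors' deposited table. The share of all listed features at that unadjusted limit is not given here, so this count has no background. The folds of the called features ran from 1.55 to 3.03 for the higher and from 1.62 to 8.57 for the lower ones. In all, 659 of 718 features (91.8%) stayed within 2-fold, beside 66.7% of all listed features. The called lower features together summed to 2291 CPM in WT and 720 CPM in FOG2_OE, and the called higher ones to 237 and 538 CPM.

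These counts moved with the scale between the groups and with the reference distribution. The median log2 fold change was -0.21 over all listed features and -0.14 over the abundant ones. Lower features were 80.6% of the called members as deposited, beside 80.0% of all called features. With the median of all features set to 0 they were 64.9%, beside 68.2% of all called features. That scale gave 20 higher and 37 lower members, where 1.62% and 3.47% of all features were called. With the median of the members set to 0, lower features were 71.9%, beside 73.1% of all called features (16 and 41 members, against 1.42% and 3.85%). With an F reference (10 residual degrees of freedom) the count was 1 higher and 23 lower, beside 0.203% and 1.07% of all features. Lower features were then 95.8% of the called members and 84.1% of all called features. With a change of at least 2-fold also required, 6 were called higher, beside 1.15% of all features.

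**Figure D4:**
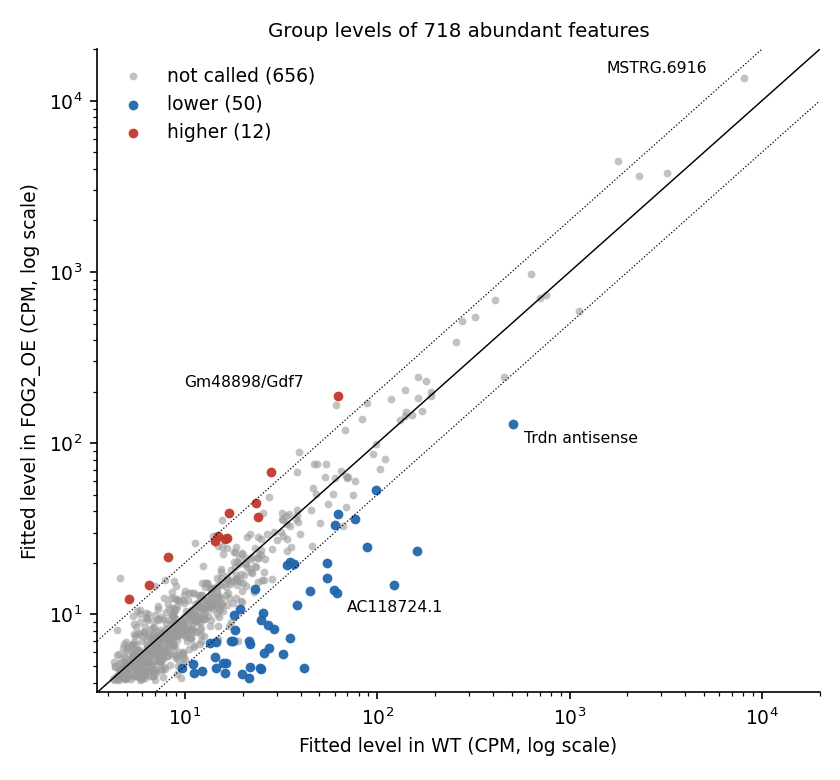
Fitted level in FOG2_OE against WT (CPM, both log scales) of the 718 abundant features, coloured by the call in the authors' deposited table, with a solid line of equal level and dotted lines at 2-fold. The 50 lower features lie mostly between 10 and 200 CPM in WT, while above 600 CPM no point is called.

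The most abundant feature called lower is listed opposite to a gene of the calcium release apparatus. MSTRG.7524 (58335 bases, chr10:33198023-33256357, minus strand) overlaps the lncRNA gene D830005E20Rik and is listed opposite to Trdn, which encodes triadin, a protein that anchors calsequestrin at the calcium release channel. Its level fell from 511 CPM in WT to 130 CPM with FOG2 overexpression (authors' deposited table: log2 fold change -1.98 ± 0.32, adjusted p = 2.4e-07 by the likelihood ratio test). MSTRG.7525 lies within it on the same strand and fell from 59.7 to 13.9 CPM, so both were 571 CPM in WT and 144 CPM in FOG2_OE when summed.

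Among sarcomere genes, Ttn and Tnnt2 overlapped abundant features. The 2 features at Ttn, the gene of titin, are listed opposite to it. They stood at 11.5 and 5.54 CPM in WT and at 7.88 and 4.41 CPM in FOG2_OE and were not called. MSTRG.4225, opposite to the cardiac troponin T gene Tnnt2, stood at 4.74 and 4.82 CPM and was not called either. Of 34 genes of rhythm and calcium handling, 3 (Ryr2, Slc8a1 and Trdn) overlapped 4 abundant features in GENCODE M21, of which 2 were called lower. MSTRG.21969, opposite to the calcium release channel gene Ryr2, stood at 10.5 CPM in WT and 6.27 CPM in FOG2_OE and was not called, and MSTRG.38913 at the sodium-calcium exchanger gene Slc8a1 stood at 7.68 and 7.71 CPM. In GENCODE M21, no abundant feature overlapped any of 23 genes of cardiac transcription factors. The 2 called features counted for the rhythm and calcium list are both those of Trdn and overlap each other, so that they are not independent. MSTRG.47803, also called lower and described below, overlaps Kcna4 of that list in RefSeq but not in GENCODE, and is not counted here. As background, 4.65% of all listed features were called lower.

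Other falls were long intergenic or lncRNA features. MSTRG.43023 (31529 bases, chr19:27135765-27167293) overlaps the lncRNA gene AC118724.1 and fell from 61.7 to 13.2 CPM. The authors' deposited table gave it the smallest adjusted p among the 718 features, 7.2e-21 by the likelihood ratio test, with a log2 fold change of -2.22 ± 0.21. At Kcna4, the gene of a potassium channel of early repolarization, MSTRG.47803, MSTRG.47801, MSTRG.47805 and MSTRG.47810 lie within chr2:107315392-107430833 on the plus strand. All 4 fell. MSTRG.47803 overlaps the RefSeq gene Kcna4, while in GENCODE all 4 are intergenic. Their levels in WT were 88.9, 27.4, 21.7 and 21.6 CPM and in FOG2_OE 24.8, 6.33, 4.96 and 4.28 CPM, so that the sum was 3.95-fold lower. MSTRG.59159 (32871 bases, 268 kb from the start of Mllt3) fell from 35.1 to 7.26 CPM. MSTRG.19448 (43926 bases), which holds several predicted genes on chromosome 12, fell from 25.9 to 5.96 CPM. MSTRG.22396, over the lncRNA gene Gm40841, fell from 38.3 to 11.3 CPM, and MSTRG.46959, opposite to Gm13943, from 16.2 to 4.52 CPM. On the log2 scale of the authors' deposited table these falls lay between -2.34 and -1.76, with implied SEs of 0.21 to 0.27.

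Most called features lay alone. With gaps of up to 100 kb joined, the 50 lower features formed 41 clusters and the 12 higher ones 10. Of the 62 called features, 44 stood alone and 18 lay in 7 clusters of at least 2. Besides those at Trdn, Kcna4 and Gm40841, a cluster of 3 near Adcy1, an adenylyl cyclase gene, was 114 CPM in WT and 30.8 CPM in FOG2_OE (3.71-fold lower), and 2 features at chr3:35352213-35401922 were 39.1 and 14.9 CPM. These clusters are named for holding several called features, after their values were seen, and whether features in 1 cluster belong to 1 transcript was not tested. Of the lower features outside the naming rule, MSTRG.87782, opposite to Fbxw26, fell from 41.5 to 4.84 CPM, at -3.10 ± 0.62 the most negative log2 value of the authors' deposited table among the 718. MSTRG.10560, near the start of the cardiac gene Lrrc10, fell from 77.1 to 36.2 CPM, and MSTRG.66594, 20.4 kb from the start of the calcium pump gene Atp2a2, from 11.1 to 4.54 CPM; both were chosen after their values were seen. Under the F reference with 10 degrees of freedom, MSTRG.87782, MSTRG.10560 and MSTRG.66594 lost the call, with adjusted p values of 0.061, 0.064 and 0.061, as did MSTRG.52281, 1 of the pair on chromosome 3, at 0.067.

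**Figure D5:**
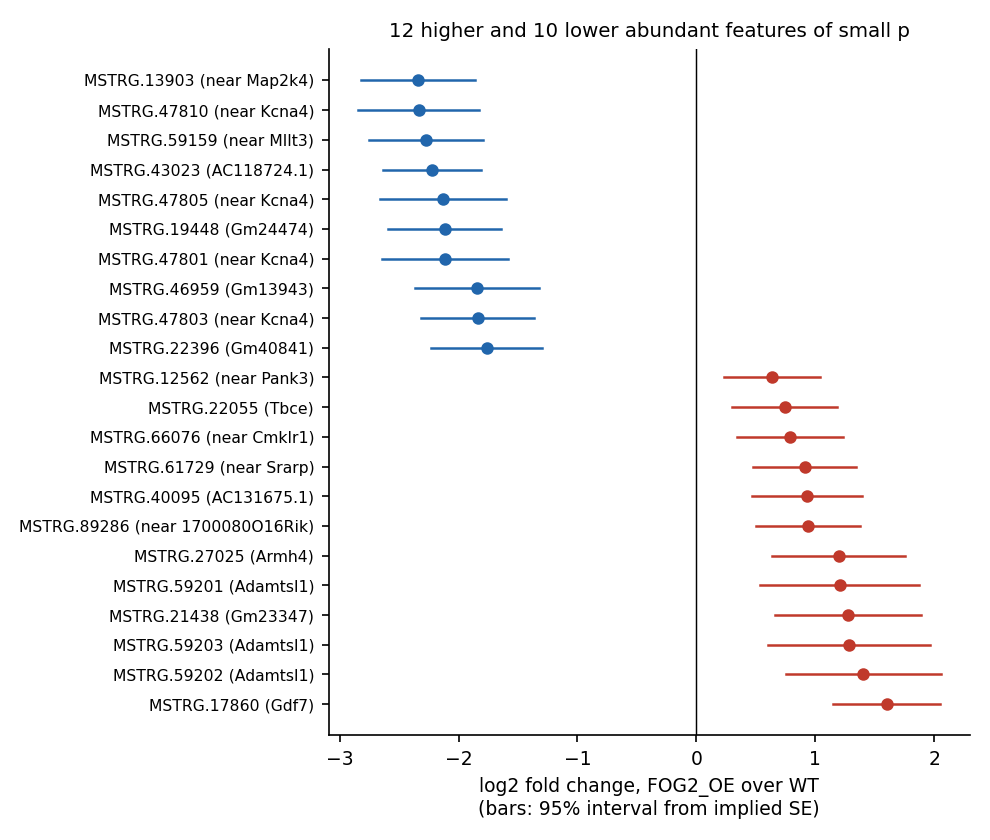
Log2 fold change of FOG2_OE over WT from the authors' deposited table for the 12 higher (red) and 10 of the 12 lower (blue) abundant features with the smallest p, with bars of the 95% interval from the implied SE. Names in parentheses are an overlapping GENCODE gene or, after near, the gene with the closest coding start. All 10 lower features drawn lie left of 0, and the 12 higher ones lie between 0.63 and 1.60.

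MSTRG.17860 had the highest fold among the 12 features called higher. It spans 12592 bases at chr12:8289402-8301993 on the minus strand, over the lncRNA gene Gm48898 and over Gdf7, the gene of a ligand of the bone morphogenetic protein family. Its level rose from 62.5 CPM in WT to 190 CPM with FOG2 overexpression (authors' deposited table: log2 fold change 1.60 ± 0.23, adjusted p = 2.6e-09 by the likelihood ratio test). The feature begins 39 bases before the RefSeq start of Gdf7 (GRCm38.p6). MSTRG.13903, a lower feature with a RefSeq gene but none in GENCODE, begins 182 bases before the RefSeq start of Gm30786 and fell 5.06-fold, from 24.6 to 4.86 CPM. The 250 bases before both starts are printed because they show the promoter side of 1 rising and 1 falling feature, at chr12:8301955-8302204 and chr11:65649853-65650102, both on the minus strand and all in lower case since no searched motif was found.
Gdf7 promoter: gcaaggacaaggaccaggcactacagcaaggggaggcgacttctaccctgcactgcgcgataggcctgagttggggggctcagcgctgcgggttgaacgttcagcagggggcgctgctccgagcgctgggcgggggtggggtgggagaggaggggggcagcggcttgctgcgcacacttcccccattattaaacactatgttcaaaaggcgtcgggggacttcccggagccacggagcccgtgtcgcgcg
Gm30786 promoter: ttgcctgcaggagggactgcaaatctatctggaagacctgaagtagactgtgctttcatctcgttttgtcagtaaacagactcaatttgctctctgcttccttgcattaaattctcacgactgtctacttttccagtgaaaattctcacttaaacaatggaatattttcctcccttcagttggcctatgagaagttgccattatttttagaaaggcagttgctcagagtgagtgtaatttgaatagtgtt
The motifs searched were AGATAA, a form bound by GATA factors, and AGGTGT, a form bound by T-box factors, on both strands. Neither promoter held these letters, and 9.99% and 11.8% of 32851 RefSeq promoter windows of the same length did.

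Of the higher features, 3 lie in Adamtsl1, which encodes a secreted glycoprotein of the extracellular matrix. MSTRG.59201, MSTRG.59202 and MSTRG.59203 lie within chr4:85765121-85832664 on the strand of the gene, and rose from 17.0, 8.21 and 27.9 CPM in WT to 39.2, 21.7 and 67.8 CPM in FOG2_OE. MSTRG.27025, over an exon of Armh4, rose from 6.51 to 14.9 CPM, and MSTRG.21438, in the imprinted Dlk1 to Dio3 region, from 5.10 to 12.3 CPM. MSTRG.89286, on the X chromosome, lies between genes in GENCODE M21 but overlaps the RefSeq gene Gpc4, and rose from 14.9 to 28.5 CPM. MSTRG.61729, 5.31 kb from the start of Srarp, rose from 14.3 to 26.8 CPM. Rises were also found at MSTRG.40095 (23.3 to 44.6 CPM), MSTRG.66076 near Cmklr1 (16.1 to 27.7 CPM), MSTRG.22055 opposite to the tubulin folding cofactor gene Tbce (16.6 to 27.8 CPM) and MSTRG.12562 near Pank3 (24.0 to 37.2 CPM). Among the 12, 11 lost the call under the F reference, with adjusted p values of 0.091 to 0.23, and MSTRG.17860 kept it at 0.012. The implied SEs of these 11 ran from 0.21 to 0.35 on the log2 scale.

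At the edge of the rule, MSTRG.28773 (opposite to Ccdc152) and MSTRG.59361 (over Junos) passed with a smallest fitted value of 300.274 and 300.296, at 6.97 and 4.55 CPM in WT and 4.14 CPM each in FOG2_OE. MSTRG.59158 and MSTRG.7318 failed with 299.684 and 299.651. MSTRG.59158 lies beside MSTRG.59159 near Mllt3 and stood at 24.1 CPM in WT and 4.14 CPM in FOG2_OE. None of the 104 listed features that carry a gene symbol reached the level, and the highest of them, 6720468P15Rik, had a smallest fitted value of 19.2.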

How the data were processed

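The data were 6 libraries, grouped by their titles. Per the submitters' processing notes, the tools were STAR, HTSeq 0.6.0, edgeR and deepTools and the build was mm10; what each did is not given. The deposited table gave, per feature, the authors' log2 fold change and log2 CPM, their p-value with its adjusted form, and the score of their likelihood ratio test. Its 6 sample columns were taken for values fitted by the authors' model, not for counts, since within each group they were constant multiples of each other (largest relative spread 1.813e-14), so the deposited comparison replaced a count test.

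Effective library sizes were solved from the fitted values, log2 fold changes and log2 CPM of the 718 members. A negative binomial dispersion was solved per feature from the likelihood ratio where this was at least 0.1 and was otherwise the median of 501 features of like abundance (144 members); it gave the SE and the recomputed calls. On simulated counts for FOG2_OE over WT (34518 features), 38% of 2-fold and 91% of 4-fold changes in members were called and 0 of 518 unchanged members. That simulation was given its dispersions, so it does not cover errors in estimating them. Changes were planted only in 100 members at each fold, whereas the deposited table called 2007 features. An adjusted p under 0.05 was thus harder to reach than in the data, and these shares do not carry over to the deposited calls.

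Features were placed on GENCODE M21 by an overlap of 1 base, with starts counted from 1. An order of classes, small RNA genes first, decided between overlapping genes. Named features were the 15 most abundant in WT, the 10 highest per kb, the 12 higher and 12 lower with the smallest p, those overlapping listed genes, and those next to the threshold; 3 of them are not reported here. The members and gene lists were chosen with earlier results of these data known. Alternatives were other levels, scales, p and fold limits, an F reference, joined overlapping features and other class rules. The computations used pandas 2.3.3, scipy 1.17.1 and numpy 2.4.6 in Python 3.11.15.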

Additional observations from a re-analysis of the deposited data

How the results depend on the processing

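The number of abundant features was 1078 at a level above 200 and 417 above 500, and 207 of the 718 were among the equally many features highest per kb. Features called higher numbered 12 as deposited, 20 with the median of all features at 0, 1 with the F reference and 6 with at least 2-fold. Features called lower numbered 50 as deposited, 23 with the F reference and 29 at a level above 500. The features called lower with either median at 0 (37 and 41) were all among the 50. Under the other settings run, the counts stayed within 1.5 times. Of 57 named features, 5 changed sign with the median of all features at 0, none of them called: MSTRG.3706 (0.19), MSTRG.35749 (0.062), MSTRG.69302 (0.034), MSTRG.42126 (0.19) and MSTRG.59361 (0.080). With the median of members at 0, MSTRG.3706 (0.11), MSTRG.42126 (0.11) and MSTRG.59361 (0.0018) did. With the F reference, 11 of 57 lost their call. Annotation classes depended on strand and overlap: ignoring strand emptied both opposite-strand classes, and asking for 50% overlap left 347 intergenic and 11 lncRNA exon features. The cause of these shifts was not tested, except that fewer features were in reach at the higher level. No paired analysis was possible because the sample columns hold fitted values, which carry no deviations of single libraries. For the same reason no replicate could be left out.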

Other observations

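Abundant features on opposite listed strands overlapped in 13 pairs, and in 7 of these the log2 fold changes had the same sign. At MSTRG.6916, a feature listed on the plus strand, MSTRG.6917, shared 282 bases and stood at 15.4 CPM in WT beside 8107 CPM on the minus strand. At MSTRG.36238, the opposite feature MSTRG.36237 shared 118 bases, stood at 15.7 CPM beside 457 CPM, and had a log2 fold change of 1.19 beside -0.92 in the authors' deposited table, neither of them called. MSTRG.3705 and MSTRG.3706 shared 186 bases at 118 and 750 CPM. How reads were assigned to a strand is not given in the sources used here.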
